A study of Mus musculus with 4 samples.

Results

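The genes examined here are the secreted and membrane-bound cues that steer growing axons, together with their receptors. All 70 were chosen by symbol from the 46983 genes measured: 20 semaphorins, 9 plexins, 2 neuropilins, 14 Eph receptors, 8 ephrins, 4 Robo receptors, 3 Slit ligands, the 4 Unc5 receptors with Dcc, 3 netrins and 2 netrin-G proteins. Antisense and overlapping transcripts, whose symbols end in os or as, were left out, which removed 3 symbols. The rule reads symbols and no measured value, but it was set with earlier results of these data known. They were followed by single-nucleus RNA sequencing (snRNA-seq) through the nerve and glial cell classes of the mouse forebrain, in a sham control and on days 1, 3, and 7 after permanent middle cerebral artery occlusion (MCAO), a stroke model without reperfusion that closes the artery by coagulation and transection. All mice were C57Black/6 males of 3 months. Each group held 1 library made from 3 hemispheres pooled while nuclei were isolated, so that no animal can be told from another and no difference between libraries has a replicate check. The condition label calls the control a sham, the surgical protocol names uninjured cortex, and the series design names forebrain hemispheres. The sham library held 336 striatal projection neurons.

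Guidance cues act over short range on cell surfaces or spread from the cells that release them, and a receptor on the growth cone turns them into attraction or repulsion. Semaphorins signal through plexins, the secreted class mostly with a neuropilin as the binding partner. Slits bind Robo receptors and repel axons, netrins attract through Dcc and repel through Unc5 receptors, and ephrins bind Eph receptors on a neighbouring cell, with signalling on both sides of the contact. In the adult brain many of these genes remain in use in synapses, in myelinating cells and in vessels.

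The libraries held 23285489 to 42963698 UMIs (unique molecular identifiers, each counting 1 captured RNA molecule), of which nuclei took 51.9% to 60.4%. After doublets were removed, 2115 nuclei remained in sham control, 1019 on day 1, 3078 on day 3 and 1571 on day 7, with a median of 6335, 10945, 5384.5 and 6966 UMIs per nucleus. Across pairs of libraries 9 barcodes were shared. The nuclei the study counts at each time point match the deposited libraries only if the labels of days 3 and 7 are exchanged, so day 3 and day 7 stand here for the libraries that carry those labels, and no order between them should be read as time. Clusters were named from marker genes, and a name such as microglia stands for microglia-like nuclei. The 70 genes were kept out of the clustering. The 7 main classes took 5698 nuclei, and the smallest, oligodendrocyte precursor cells, held 33 to 88 nuclei per library. A further 1580 nuclei were neurons of 6 clusters that met the markers of no single class (221 to 575 per library), and 5 other classes, among them endothelial cells and fibroblasts, held 19 to 139 nuclei each. Orders of classes are among the 7 main classes unless another is named. A cluster of glutamatergic neurons held 5 nuclei in sham control and 17, 45 and 45 on days 1, 3, and 7, and ratios in this class are also given with each cluster held at the same weight in every library (weighted alike) where that moved them outside their counting interval. A second alternative named below placed each nucleus by its own marker UMIs in place of its cluster (marker classes).

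The level of a gene is its CPM, the number of its UMIs in every 1000000 UMIs of the class in that library, with exact Poisson 95% intervals where one is printed. Ratios to sham control carry exact conditional binomial 95% intervals. All of these cover counting error only. Free RNA, released from broken cells and captured with every nucleus, was estimated at 7.07% to 9.12% of the UMIs in glutamatergic neurons. In striatal projection neurons it was 9.2% to 16.1%, highest on day 1, and in GABAergic neurons 9.85% to 12.4%. The estimates were 20.7% to 32.3% in astrocytes, 15.3% to 23.6% in oligodendrocytes, 16.8% to 20.2% in precursor cells and 26.3% to 29.7% in microglia. Since many of the 70 genes are high in neurons, the level that free RNA would give is printed beside several glial values where it is near the measured one. It is not printed beside each of them.

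Of the 70 genes, 64 reached 50 UMIs over the 7 main classes. Those that did not were Efna4, Epha1, Epha2, Robo4, Sema3b and Sema3g. Within single classes 60 genes reached 50 UMIs in glutamatergic neurons, 48 in striatal projection neurons, 46 in GABAergic neurons, 30 in astrocytes, 30 in oligodendrocytes, 19 in precursor cells and 21 in microglia, an order that also follows the UMIs each class holds. The class with the highest pooled CPM was neuronal for 37 of the 64 (57.8%, against 26.9% of the 15871 genes with as many UMIs) and glial for 27. By family, which are small and were not compared by a test, all 3 measured Robo receptors, all 3 Slits and both netrin-G genes were highest in a neuron class, as were 9 of 12 Eph receptors, whereas both neuropilins were highest in microglia and 10 of 18 semaphorins in a glial class.

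**Figure D1:**
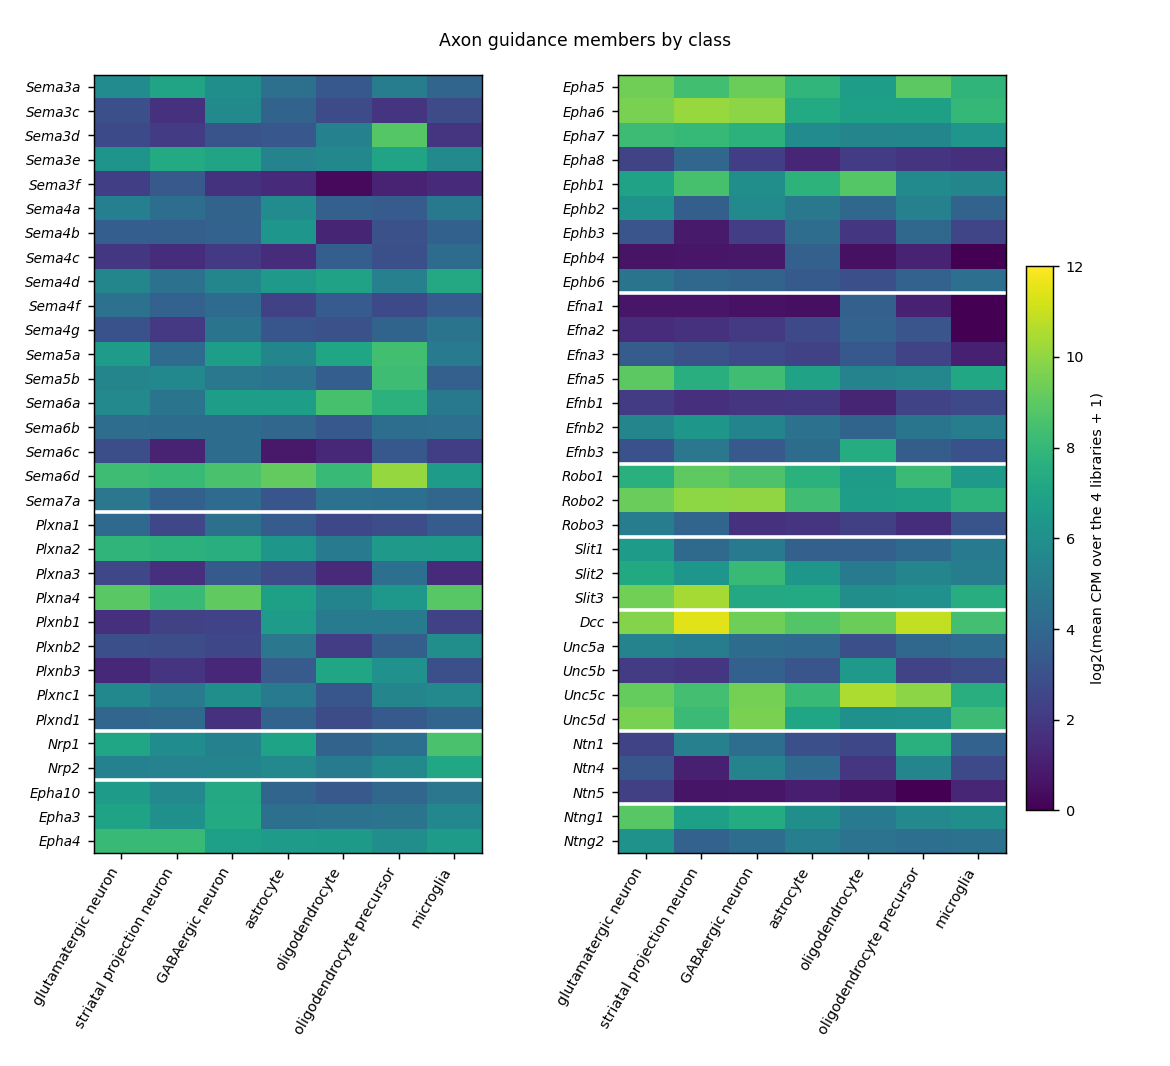
Levels of the 64 guidance genes with at least 50 UMIs in the 7 main classes. Each row is a gene, ordered by family with white lines between families, each column a class, and the colour the log2 of the mean CPM over the 4 libraries plus 1. Dcc, Epha6, Robo2 and Slit3 are high in the striatal projection neuron column, Dcc also in that of precursor cells, and Sema3d, Sema5b and Ntn1 in the precursor cell column.

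A gene was counted as leading in a class where its CPM was at least 2-fold that in each other main class in all 4 libraries. By this rule 11 of the 64 genes (17.2%) led in some class, against 9.20% of the 15871 genes with as many UMIs. The 11 were spread over 6 classes. Precursor cells had 3 (Sema3d, Sema5b and Ntn1; 0.706% of all genes led there), oligodendrocytes 3 (Efnb3, Unc5b and Efna1; 2.00% of all genes), astrocytes 2 (Sema4b and Plxnb1; 1.68%), microglia 1 (Nrp1; 3.34%), striatal projection neurons 1 (Epha8; 0.794%) and GABAergic neurons 1 (Sema3c; 0.435%). Glutamatergic neurons had 0 of 64, beside 0.239% of all genes. Set against the 6 further classes too, with UMIs pooled, 2 of the 11 (Efnb3 and Sema5b) stayed at least 2-fold above every other class, and Sema3c and Efna1 were higher in endothelial nuclei. In the neurons outside the main classes 6 of the 64 genes were higher than in every main class when pooled (9.38%, against 5.49% of all genes), and 3 were so within each library (4.69%, against 0.964%). Classes come from clustering, so these are descriptions and no p-value is attached.

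**Figure D2:**
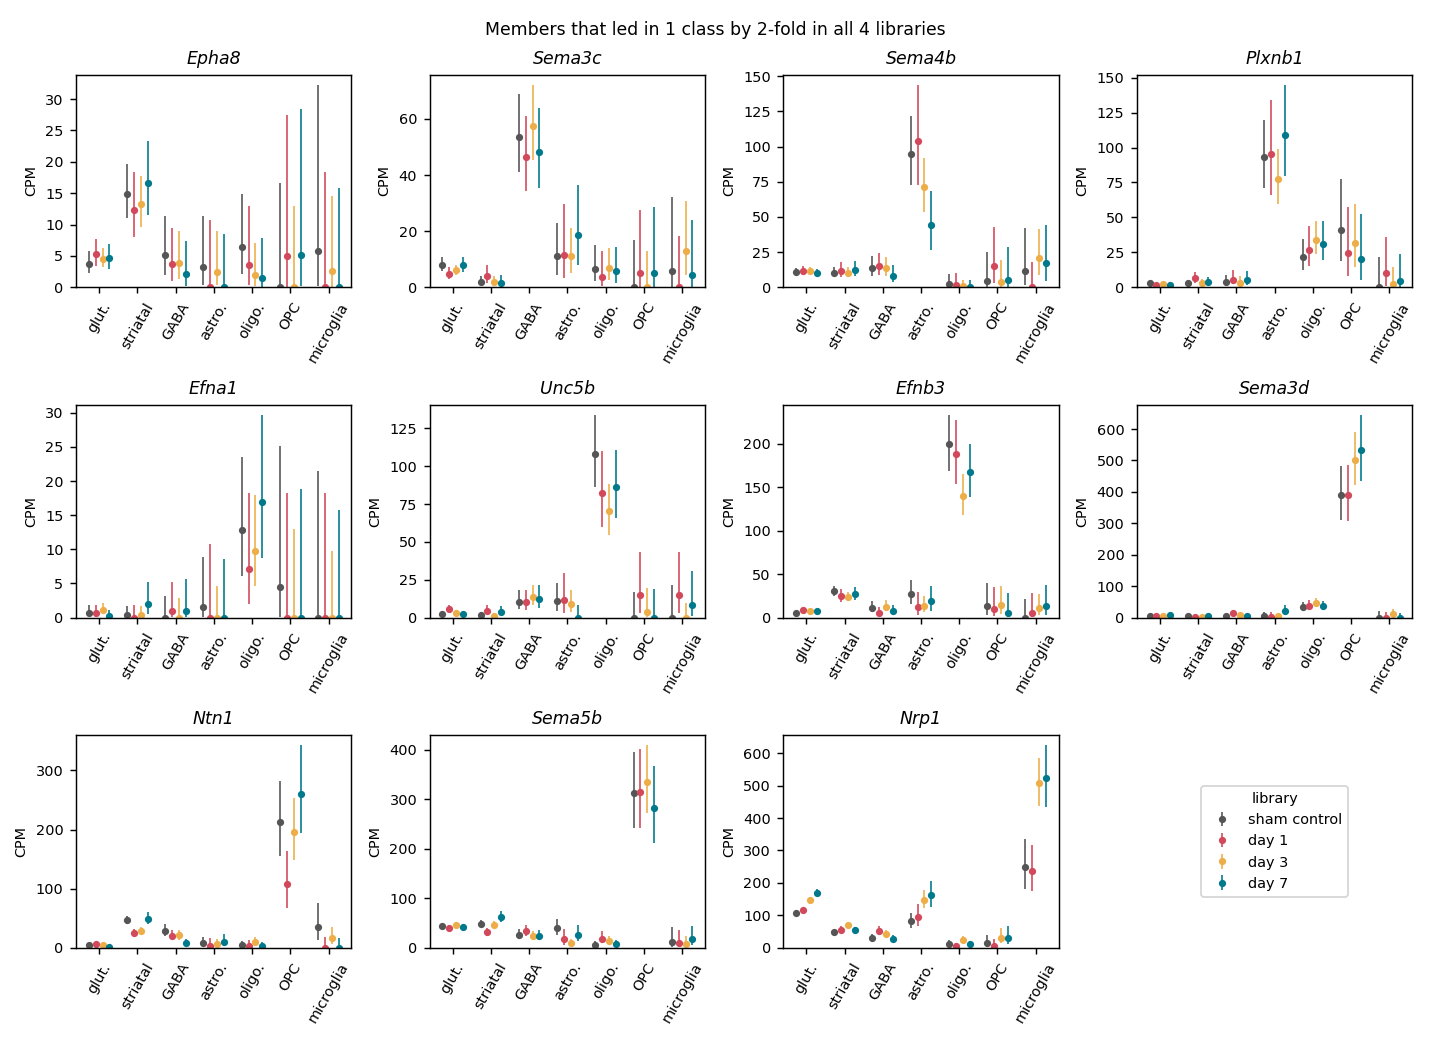
CPM of the 11 leading genes in each library, in each of the 7 main classes. Points are the libraries and bars the exact Poisson 95% intervals. Sema3d sat at 389 to 533 CPM in precursor cells and at 33.2 to 45.7 CPM in oligodendrocytes.

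Among the secreted semaphorins, which act as repellents or attractants through neuropilin and plexin complexes, Sema3d had the largest pooled fold of the 11 leading genes over the next main class. In precursor cells it measured 389 CPM in sham control, 389 on day 1, 500 on day 3 and 533 on day 7, from 79 to 143 UMIs per library. The next main class was its own descendant, the oligodendrocyte, with 33.2, 37.5, 45.7 and 35.4 CPM. Outside the main classes, leptomeningeal fibroblasts had Sema3d at 414 CPM when pooled (350 to 486, from 149 UMIs in 33 nuclei), 0.91 times the pooled precursor cell level of 455 CPM. The pooled fold over oligodendrocytes was 11.8, and no library gave less than 10.4. Free RNA would give precursor cells at most 1.86 CPM of Sema3d.

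Unc5b and Plxnb3 were highest in oligodendrocytes (values below), and the 250 bases before the transcription start of these 3 genes are printed to show what their promoters share and do not share in letters. The genes and the motif were picked after the levels had been seen. Sequences are from RefSeq on GRCm38.p6, written 5′ to 3′ on the strand of the gene. Capitals mark ACAAAG or its reverse complement CTTTGT, the core that SOX family factors recognise, searched on both strands. Sema3d lies on the plus strand with its window at chr5:12382916-12383165, Plxnb3 on the plus strand at chrX:73756853-73757102 and Unc5b on the minus strand at chr10:60831582-60831831.
Sema3d: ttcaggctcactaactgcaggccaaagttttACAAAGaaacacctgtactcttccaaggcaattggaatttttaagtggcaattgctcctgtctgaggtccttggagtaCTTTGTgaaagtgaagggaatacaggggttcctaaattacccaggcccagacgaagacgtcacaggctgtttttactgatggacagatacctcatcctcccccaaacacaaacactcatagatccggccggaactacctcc
Plxnb3: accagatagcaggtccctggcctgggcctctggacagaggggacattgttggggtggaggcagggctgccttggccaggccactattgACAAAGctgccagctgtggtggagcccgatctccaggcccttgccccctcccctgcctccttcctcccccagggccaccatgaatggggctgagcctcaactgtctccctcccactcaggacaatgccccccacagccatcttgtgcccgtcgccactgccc
Unc5b: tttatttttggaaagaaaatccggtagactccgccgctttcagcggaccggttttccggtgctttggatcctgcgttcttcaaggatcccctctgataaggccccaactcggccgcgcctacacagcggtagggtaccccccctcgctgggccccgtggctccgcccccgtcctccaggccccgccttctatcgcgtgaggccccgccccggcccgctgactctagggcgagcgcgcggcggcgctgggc
The Sema3d window held 2 matches, 219 and 141 bases before the start, the Plxnb3 window held 1, at 162 bases, and the Unc5b window held 0. These 6 letters occur by length alone in many windows: 5408 of 32851 promoters of this length (16.5%) held a match. Of the 76 promoters listed for 60 of the 70 guidance genes, 7 did (9.21%), and of the 9 leading genes with a listed promoter only Sema3d had any match. A match describes letters and not a bound site.

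Sema5b, a transmembrane semaphorin with thrombospondin repeats, was likewise highest in precursor cells, at 312, 315, 335 and 282 CPM in sham control and on days 1, 3, and 7. Striatal projection neurons came next with 31.7 to 63.1 CPM, and the pooled fold was 6.61. Its relative Sema5a was higher in precursor cells too (253, 315, 297 and 441 CPM), but 2.38-fold over oligodendrocytes when pooled and not in every library, since oligodendrocytes reached 314 CPM on day 7. Sema6d, a transmembrane semaphorin, was the family member with the most UMIs. It had 950 to 1358 CPM in precursor cells and 385 to 760 CPM in astrocytes, a pooled fold of 1.9 that misses the rule. Sema6a, its close relative, was instead highest in oligodendrocytes, at 388, 384, 257 and 434 CPM.

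Other semaphorins marked other classes. Sema4b led in astrocytes with 94.8, 104, 71.1 and 44.0 CPM, against 0 to 21.0 CPM in microglia, the next class, which rest on 0 to 8 UMIs per library. Sema4d, known from lymphocytes and oligodendrocytes, measured 139, 94.2, 181 and 197 CPM in microglia and 126, 73.2, 124 and 163 CPM in oligodendrocytes, and the Poisson intervals of these classes overlapped in every library. Sema3c led in GABAergic neurons with 53.7, 46.3, 57.6 and 48.1 CPM, 4.09-fold over astrocytes. Sema3a and Sema3e, both secreted repellents, were highest in striatal projection neurons, at 107 to 153 CPM and 145 to 183 CPM in the 4 libraries. Sema3a stood 2.12-fold above GABAergic neurons when pooled. Sema3e had 126 CPM in GABAergic neurons when pooled and did not separate by the rule.

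Of the semaphorin receptors, 1 of 9 plexins and 1 of 2 neuropilins led in a class, beside 4 of 18 semaphorins. Plxna4 and Plxna2, the plexins with the most UMIs, were broad: pooled Plxna4 was 541 CPM in GABAergic and 482 CPM in glutamatergic neurons, and pooled Plxna2 was 232 CPM in glutamatergic and 211 CPM in striatal projection neurons. The B plexins divided by glial class. Plxnb1 led in astrocytes (93.3, 95.4, 77.3 and 109 CPM, 3.05-fold over precursor cells). Plxnb2 was highest in microglia (57.9, 44.6, 78.9 and 55.8 CPM, from 9 to 30 UMIs), where free RNA would give 15.5 to 19.9 CPM. Plxnb3 was highest in oligodendrocytes (142, 100, 127 and 154 CPM, 2.06-fold over precursor cells), with 52.4 to 76.8 CPM in precursor cells. The next highest main class for each of these genes was a glial one.

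Nrp1, the co-receptor of secreted semaphorins and of vascular endothelial growth factor, led in microglia with 249, 238, 507 and 524 CPM. Glutamatergic neurons came next at 107, 116, 147 and 169 CPM, and the fold was 3.03 when pooled, 2.05 at its lowest. Nrp2 was also highest in microglia, with 92.6, 154, 192 and 142 CPM, but its lowest fold over the next class was 1.63. Free RNA would give microglia at most 24.1 CPM of Nrp1 and 11.7 CPM of Nrp2.

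Each of the 3 Slit ligands was highest in a different neuron class. Slit1 was highest in glutamatergic neurons (62.8, 111, 91.4 and 122 CPM), Slit2 in GABAergic neurons (310, 208, 263 and 289 CPM) and Slit3 in striatal projection neurons (1339, 1221, 1379 and 1414 CPM). The Slit3 level in striatal projection neurons was 1.93-fold that in glutamatergic neurons when pooled, and its pooled level per kb of gene body was 0.262 CPM in GABAergic neurons against 2.29 CPM in striatal projection neurons. Among the receptors, Robo2 could not be ordered between striatal projection neurons (1043, 880, 1141 and 968 CPM) and GABAergic neurons (1144, 792, 1179 and 940 CPM), whose ranges overlap. Robo1 was higher in striatal projection neurons (440 to 574 CPM) than in every other main class within each library, by 1.21 to 1.41-fold over the next. Robo3, a divergent Robo, was highest in glutamatergic neurons at 27.0 to 39.7 CPM. Slit3 and Robo1 thus shared their highest main class, and binding between them was not measured.

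Of the netrin system, Ntn1, the secreted attractant, led in precursor cells at 213, 108, 196 and 261 CPM. Striatal projection neurons came next at 46.3, 24.3, 28.1 and 49.0 CPM, and oligodendrocytes had 0.0288 CPM per kb against 1.02 in precursor cells. Ntn4 was at 24.6 to 66.6 CPM in precursor cells and 25.0 to 49.4 CPM in GABAergic neurons, ranges that overlap. Ntn5 was low throughout, at most 5.35 CPM in glutamatergic neurons. The attractive receptor Dcc was highest in striatal projection neurons (3179.5, 2266, 3231 and 2692 CPM) and next in precursor cells (2109, 1910.4, 2075 and 1659.6 CPM), with no overlap between the ranges. Precursor cells thus had the highest level of Ntn1 and the next highest of Dcc among the main classes.

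The repulsive netrin receptors divided between lineages. Unc5b led in oligodendrocytes with 108, 82.1, 70.1 and 86.3 CPM, 7.31-fold over GABAergic neurons (10.2 to 13.8 CPM), while precursor cells had 0.064 CPM per kb against 1.24 in oligodendrocytes. Unc5c was highest in oligodendrocytes (1354, 1330.4, 1441 and 1677 CPM) and stood 1.55-fold above precursor cells (1005, 743, 807 and 1249.9 CPM). Unc5d was neuronal, at 529 to 950 CPM in glutamatergic and 613 to 876 CPM in GABAergic neurons. Unc5a was low, at 35.1 to 43.8 CPM in glutamatergic neurons. The netrin-G genes, whose membrane-anchored products sit at synapses and bind netrin-G ligands in place of Dcc, were highest in glutamatergic neurons, Ntng1 with 387, 517, 430 and 552 CPM and Ntng2 with 74.2, 51.3, 80.9 and 64.7 CPM.

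Ephrins and Eph receptors act between touching cells. Efnb3, a transmembrane ephrin, led in oligodendrocytes with 199, 188, 140 and 167 CPM. Striatal projection neurons came next with 23.9 to 29.9 CPM, and the pooled fold was 6.4. Its gene body is only 6.11 kb, and on the scale of CPM per kb it had the highest value of all tested genes and classes here, 27.8 in oligodendrocytes, followed by Plxnb3 in the same class with 8.55. Gene bodies include introns, and reads near 3′ ends do not grow with length, so this scale favours short genes. Efna1 passed the rule in oligodendrocytes on only 4 to 12 UMIs per library (7.14 to 17.0 CPM). The ephrins with the most UMIs were neuronal, Efna5 at 403 to 609 CPM in glutamatergic neurons and Efnb2 at 65.9 to 89.4 CPM in striatal projection neurons.

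Of the Eph receptors, Epha6 had the most UMIs and measured 1198, 1056, 1100.5 and 1123 CPM in striatal projection neurons and 679, 791, 766 and 854 CPM in glutamatergic neurons. GABAergic neurons came next after striatal projection neurons, at 817 to 1031 CPM, with a pooled fold of only 1.17 between them. Epha5 was at 624 to 726 CPM in glutamatergic and 569 to 680 CPM in GABAergic neurons, overlapping ranges. Epha8 led in striatal projection neurons at 14.9, 12.4, 13.3 and 16.7 CPM against 3.75 to 5.23 CPM in glutamatergic neurons. Ephb1, a receptor of the transmembrane ephrins, was the Eph receptor highest in oligodendrocytes, at 629, 341, 461 and 368 CPM, and exceeded its range in striatal projection neurons (299 to 403 CPM) in sham control and on day 3.

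The genes are long. Their median gene body was 57.5 kb against 25.1 kb over 15808 tested genes with a position, and 33 of 70 (47.1%) were at least 100 kb, against 15.8%. Dcc spans 1097 kb on chr18:71253634-72351069 and Epha6 952 kb on chr16:59653483-60605531 (gene bodies, GRCm38). In nuclei such genes collect many intronic reads, so a level is comparable between classes for 1 gene. Between genes neither CPM nor CPM per kb gives a direct comparison, since reads near 3′ ends do not grow with length. Of the 70 genes, 43 overlapped another annotated gene, and the strand used in counting is not given in the sources used here, so that reads of those genes can include an overlapping transcript.

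The other question of the design was which of these genes differed from sham control after MCAO within a class. A gene was counted where its CPM was at least 2-fold above or below sham control on at least 1 day, among genes with 50 UMIs in the class. In neurons the count was small and near the share of all genes: 5 of 60 guidance genes in glutamatergic neurons (8.33%, against 7.77% of all genes), 4 of 48 in striatal projection neurons (8.33%, against 7.78%) and 5 of 46 in GABAergic neurons (10.9%, against 8.92%). In the neurons outside the main classes it was 4 of 59, Efna2, Ntng2, Sema3c and Sema5b (6.78%, against 6.46%). With free RNA subtracted more genes passed in general, among them 10 of 60 guidance genes in glutamatergic neurons (16.7%, against 15.3% of all genes), 8 of 48 in striatal projection neurons (16.7%, against 20.9%) and 8 of 46 in GABAergic neurons (17.4%, against 18.6%). In glia both shares were larger: 9 of 30 in astrocytes (30%, against 17.7%), 11 of 30 in oligodendrocytes (36.7%, against 14.8%), 5 of 19 in precursor cells (26.3%, against 15.5%) and 10 of 21 in microglia (47.6%, against 27.8%). With free RNA subtracted these shares were 46.7% in astrocytes (against 36.3%) and 50% in oligodendrocytes (against 29.0%). In precursor cells they were 31.6% (against 24.9%) and in microglia 71.4% (against 41.8%). With each nucleus thinned to 1000 UMIs fewer genes reached 50 UMIs. The counts were then 2 of 11 in astrocytes (18.2%, against 20.5% of all genes), 2 of 10 in precursor cells (20%, against 19.6%), 5 of 18 in oligodendrocytes (27.8%, against 15.4%) and 5 of 9 in microglia (55.6%, against 28.9%). As per-nucleus means the share was below that of all genes in precursor cells (15.8%, against 20.2%) and microglia (23.8%, against 29.9%), and without the top nucleus of each gene it was 33.3% against 33.2% in microglia. The summed level of 8 neuron markers, all above 0 in every glial class and library, was 3465, 4911, 1937 and 2872 CPM in astrocytes and 2172, 1377, 2715 and 1708 CPM in oligodendrocytes for sham control and days 1, 3, and 7. In precursor cells it was 2341 to 3852 CPM and in microglia 3229 to 6024 CPM, against 17326 to 18771 CPM in glutamatergic neurons. Its part in the counts was not tested.

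**Figure D3:**
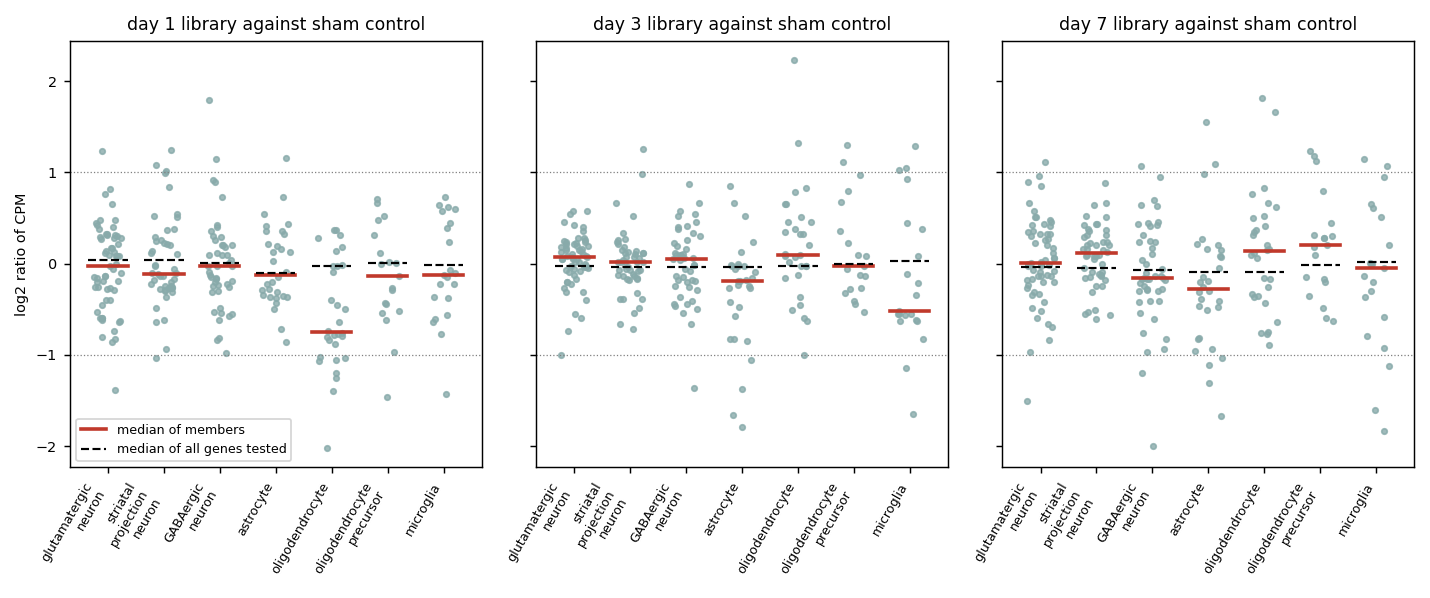
Log2 ratios of CPM to sham control for the guidance genes with at least 50 UMIs in each class, by day. Each point is a gene, the red line the median of the guidance genes, the dashed line the median of all genes tested, and the dotted lines mark 2-fold. Most medians lie near 0, and that of oligodendrocytes on day 1 lies lowest, at -0.75.

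Of the 21 medians of the guidance genes, 1 for each class and day, those not named next lay between -0.28 and 0.20. In oligodendrocytes on day 1 the guidance genes had a median log2 ratio of -0.75, against -0.03 over all genes tested, and in microglia on day 3 they had -0.52, against 0.03. In oligodendrocytes on day 1, 24 of 30 guidance genes were below sham control, and the median stayed between -0.45 and -0.77 under every alternative. It was -0.77 for the 24 genes of at least 100 kb, against -0.14 for all genes of that length. It was -0.79 for the 18 whose highest class is neuronal (-0.18 over all such genes) and -0.24 for the 12 whose highest class is glial (0.00 over all such genes). The neuron markers in the same nuclei stood at 1377 CPM on day 1 against 2172 CPM in sham control. The microglia median on day 3 ranged from -0.73 to 0.37 over the alternatives and so kept no direction.

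A separate count took the genes that lay on the same side of sham control on all 3 days with every interval leaving out 1. This rule was added after the values had been seen. It took 22 of 254 pairs of a guidance gene and a class (8.66%, against 2.59% of all such pairs), 10 above and 12 below sham control. In glutamatergic neurons it took 12 of 60 (20%, against 5.36%), 7 above and 5 below. With the clusters of this class weighted alike, Epha6, Ntng1 and Robo1 of the 7 did not stay above sham control on all 3 days. The share of all genes under that weighting is not given here. Guidance genes carry more UMIs than other genes in this class (a median of 1020 against 448), which narrows their intervals. The 3 post-injury libraries also share the sham library.

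Of the Slit ligands, Slit1 had the largest ratios in glutamatergic neurons on all 3 days. Its level was 62.8 CPM in sham control, 111 on day 1, 91.4 on day 3 and 122 on day 7, from 352 to 752 UMIs, so that all 3 post-injury libraries lay above sham control. The ratios were 1.77 (1.54 to 2.03), 1.46 (1.28 to 1.66) and 1.95 (1.7 to 2.23). With the clusters of the class weighted alike they were 1.5, 1.22 and 1.37. Slit1 (chr19:41600257-41743665) overlaps no other gene. In striatal projection neurons it was 11.7 CPM in sham control, 27.7 on day 1, 12.7 on day 3 and 15.2 on day 7, with only the day 1 ratio of 2.38 (1.55 to 3.68; 1.65 in marker classes) leaving out 1. Slit2 went the other way in glutamatergic neurons, at ratios of 0.731, 0.921 and 0.666, of which day 3 turned to 1.07 in marker classes and was 0.845 weighted alike. Slit3 was at 1.22, 1.18 and 1.28, or 1.14, 1.15 and 1.16 weighted alike. Slit2 and the other Slits thus lay on opposite sides of sham control on days 1 and 7. Of their receptors, Robo2 was at 0.842, 0.948 and 0.871 and Robo1 at 1.24, 1.13 and 1.39, but the ratios of Robo1 were 0.957, 0.995 and 1.01 with the clusters weighted alike.

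Of the repulsive netrin receptors, Unc5d lay on opposite sides of sham control in glutamatergic and GABAergic neurons. In glutamatergic neurons it measured 950, 778, 785 and 529 CPM, lowest on day 7 at a ratio of 0.557 (0.531 to 0.584). Weighted alike over clusters the ratios were 0.9, 0.911 and 0.723. In GABAergic neurons it measured 613, 705, 876 and 843 CPM, with ratios of 1.15 (1.04 to 1.28), 1.43 (1.3 to 1.57) and 1.38 (1.24 to 1.52). The day 1 ratio turned to 0.964 in nuclei thinned to 1000 UMIs, so that only days 3 and 7 kept their side there. The difference between the classes was not tested. Unc5d (chr8:28646717-29219636) overlaps 3 genes on its own strand, Svet1 among them, so part of its reads may belong to those. Unc5c in GABAergic neurons was higher on all 3 days as well, at 578, 705, 840 and 770 CPM.

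Ntn1, the netrin ligand with the most UMIs, was below sham control on at least 1 day in 4 classes, on small counts. It was at 5.35 CPM in glutamatergic neurons of the sham library and 1.89 CPM on day 7, from 30 and 9 UMIs. In GABAergic neurons it was at 28.6 CPM in sham control and 7.16 CPM on day 7, from 33 and 7 UMIs. In marker classes these ratios of 0.352 and 0.25 were 0.805 and 0.595. In striatal projection neurons it was at 46.3, 24.3, 28.1 and 49.0 CPM, so that days 1 and 3 lay below sham control (0.524, 0.372 to 0.726, and 0.606, 0.464 to 0.789) and day 7 did not. In precursor cells, the class where Ntn1 led, only day 1 stood apart at 108 CPM against 213 CPM in sham control (0.509, 0.292 to 0.862). Ntng1 in GABAergic neurons was 302 CPM on day 1 against 87.5 CPM, but 57.1% of its 326 UMIs came from 1 nucleus, and the ratio of 3.45 fell to 1.72 without the top nucleus of each library.

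Of the semaphorins, Sema4g and Sema6c passed 2-fold in glutamatergic neurons, Sema5a in striatal projection neurons and Sema4a and Sema7a in GABAergic neurons. In marker classes each of the 5 fell short of 2-fold on the day where it had passed: Sema4g at 1.53 and Sema6c at 0.536, Sema5a at 1.32, Sema4a at 1.25 and Sema7a at 0.803, in place of 2.16, 0.383, 2.02, 2.23 and 0.39. Sema3a in glutamatergic neurons was lower on every day, at 70.3, 40.4, 56.6 and 49.0 CPM (ratios of 0.575, 0.806 and 0.698), and stayed lower weighted alike, at 0.614, 0.882 and 0.858. Sema5a was higher, at 73.3, 92.1, 89.1 and 132 CPM, with ratios of 1.26, 1.21 and 1.8, of which 1.05, 1.07 and 1.22 remained with the clusters weighted alike. Sema6c, a transmembrane semaphorin, was 8.74 CPM in sham control and 3.35 CPM on day 1 from 49 and 16 UMIs, a ratio of 0.383 (0.203 to 0.686), and Sema4g was 4.46 CPM in sham control and 9.64 CPM on day 7. Nrp1, the semaphorin co-receptor, was higher in glutamatergic neurons on day 3 (1.38, 1.25 to 1.52) and day 7 (1.58, 1.42 to 1.76), but not on day 1 (1.09, 0.965 to 1.22). Weighted alike, the day 3 and day 7 ratios were 1.13 and 1.03.

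Nrp1 was also higher in microglia and astrocytes on those days. In microglia its level was 249 CPM in sham control and 238 on day 1, and 507 and 524 on days 3 and 7, with ratios of 0.956 (0.62 to 1.48), 2.04 (1.46 to 2.91) and 2.1 (1.47 to 3.05). The Poisson intervals of days 3 and 7 lay above those of sham control and day 1, but in marker classes both ratios fell below 2-fold, to 1.51 and 1.42. In astrocytes it was 82.2, 95.4, 148 and 162 CPM, with ratios of 1.16 (0.727 to 1.83), 1.81 (1.29 to 2.55) and 1.97 (1.36 to 2.88). The astrocyte value on day 7 lost its direction when nuclei were thinned to 1000 UMIs, where 5 UMIs remained, against 13 in sham control. Nrp2 in microglia was at 1.66, 2.07 and 1.53 times its sham level, and only the day 3 interval (1.19 to 3.81) left out 1. Nrp1 lies at chr8:128358604-128503363.

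Transmembrane semaphorins differed from sham control in both classes of the oligodendrocyte lineage. Sema6d was below sham control on all 3 days in oligodendrocytes (362, 232, 281 and 214 CPM) and in precursor cells (1358, 950, 1118 and 973 CPM). In astrocytes it was instead above it on day 3, at 760 CPM against 476 CPM (1.6, 1.39 to 1.84), and below it on day 1 (0.808, 0.654 to 0.995), though the day 1 ratio was 1.01 in thinned nuclei. Sema5a in oligodendrocytes was 89.3 CPM in sham control, 42.9 on day 1, 96.4 on day 3 and 314 on day 7, a ratio of 3.52 (2.68 to 4.67) on day 7. Its 222 UMIs there came from 29 nuclei, and 1 nucleus gave 23.4% of them. In precursor cells Sema5a was higher on day 7 as well, at a log2 ratio of 0.80 whose interval leaves out 1 (0.50 in thinned nuclei). Sema4b, the astrocyte semaphorin, was at 94.8 CPM in sham control and 44.0 CPM on day 7 (0.464, 0.261 to 0.788; 0.869 in thinned nuclei, from 7 and 2 UMIs). Plxna4, a plexin, was higher in oligodendrocytes on day 3 (4.7, 2.6 to 9.2, with 42.5% of UMIs from 1 nucleus) and day 7 (3.16, 1.64 to 6.47). The day 3 ratio was 1.87 as a mean over nuclei and the day 7 ratio 1.88 with doublets kept. Its levels were 16.6, 21.4, 77.9 and 52.4 CPM, and free RNA would give 23.1 CPM in sham control and 17.3 CPM on day 1, so that both stood at about the free RNA level.

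**Figure D4:**
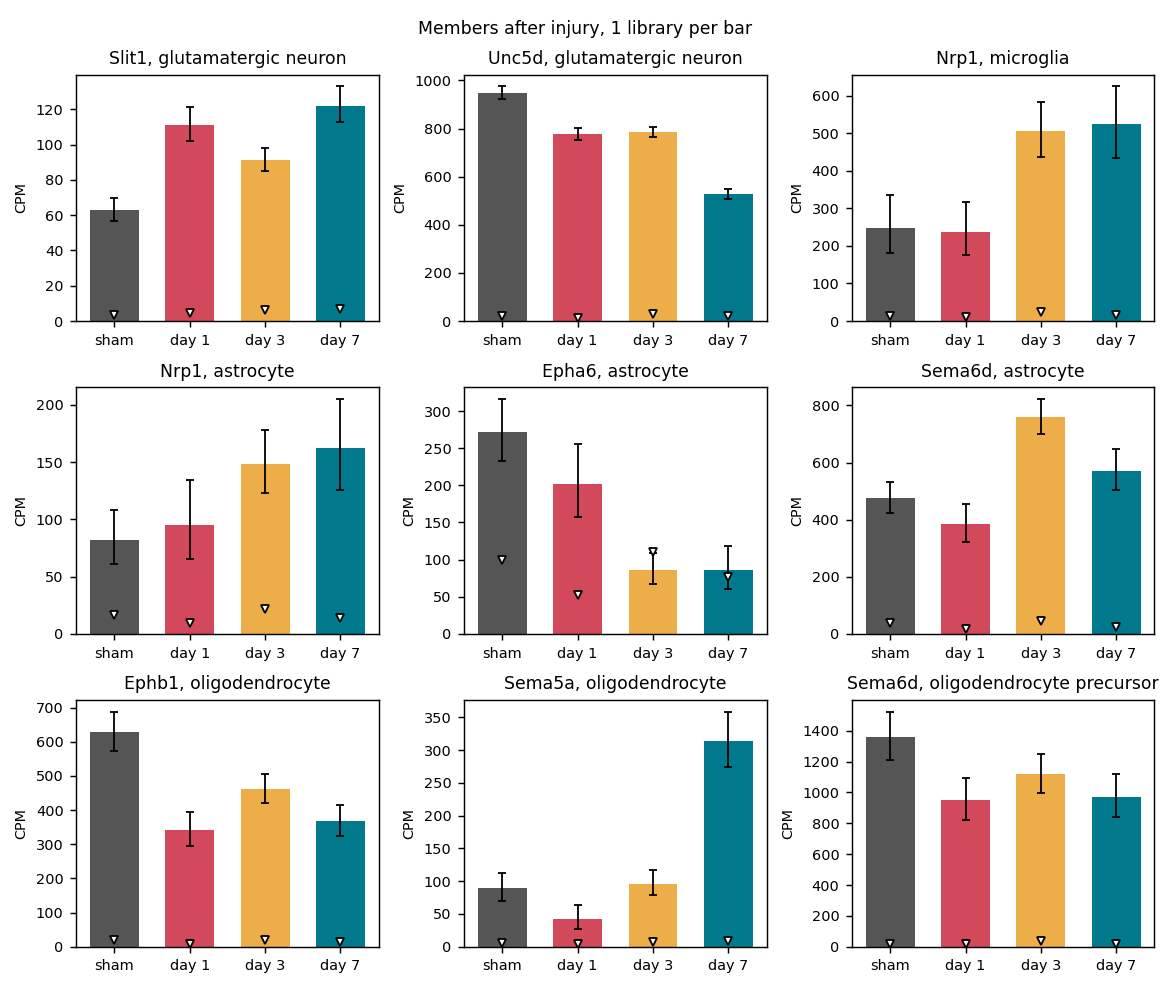
CPM of 9 pairs of a gene and a class in the 4 libraries, chosen after the values were seen. Bars are levels, error bars exact Poisson 95% intervals and white triangles the CPM that free RNA would give. Nrp1 in microglia stood at 507 and 524 CPM on days 3 and 7 against 249 CPM in sham control.

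Among Eph receptors, Ephb1 was below sham control on all 3 days in oligodendrocytes, the main class where it was highest. It measured 629, 341, 461 and 368 CPM, with ratios of 0.543 (0.457 to 0.642), 0.734 (0.646 to 0.834) and 0.585 (0.502 to 0.681). The Poisson interval of the sham level lay above those of all 3 days, and free RNA would give at most 19.4 CPM. Ephb1 (chr9:101922128-102354693) overlaps 9 other genes. In GABAergic neurons Ephb1 was lower as well, at 82.3, 66.7, 52.2 and 35.8 CPM, from 95 to 35 UMIs, though days 3 and 7 turned above sham control when nuclei were thinned, where 3 to 6 UMIs remained. Epha3 in GABAergic neurons was higher, at 109, 206, 163 and 170 CPM, with 37.2% of the day 1 UMIs from 1 nucleus. The day 1 ratio of 1.89 was 1.13 in thinned nuclei.

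Epha6 was at 1.17, 1.13 and 1.26 times its sham level in glutamatergic neurons and at 0.881, 0.919 and 0.937 in striatal projection neurons, all with intervals that leave out 1. The glutamatergic ratios turned to 0.866, 0.976 and 0.87 when clusters were weighted alike, so that they kept no direction. In astrocytes it was 272, 202, 86.1 and 85.7 CPM, of which free RNA would give 98.9, 52.6, 110 and 76.1 CPM, so days 3 and 7 stood at about the free RNA level. The day 3 log2 ratio of Epha6 there was -1.66, and -0.59 as a mean over nuclei. Dcc in astrocytes was also below sham control, at 609, 335, 514 and 320 CPM, and its day 3 ratio turned above sham control when nuclei were thinned. Of the ephrins, Efna5 was lower in glutamatergic neurons (609, 403, 530 and 483 CPM) and in GABAergic neurons (373 CPM against 291 to 315 CPM) on all 3 days, with ratios of 0.661, 0.87 and 0.794, and of 0.805, 0.781 and 0.845. Weighted alike the glutamatergic ratios were 0.725, 0.927 and 0.951, and the GABAergic ratio of day 7 turned to 1.03 as a mean over nuclei.

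Further glial ratios past 2-fold concerned both genes that are highest in neurons and genes that are highest in another glial class. Of the latter, Sema5a in astrocytes was 33.2, 28.9, 18.7 and 97.3 CPM, from 10 to 42 UMIs, and its day 7 ratio was 2.93 (1.7 to 5.21) with 45.2% of the UMIs from 1 nucleus. Nrp2 in oligodendrocytes was 33.2, 42.9, 16.5 and 21.2 CPM, from 15 to 26 UMIs, a ratio of 0.499 (0.254 to 0.955) on day 3. Plxnb2 in astrocytes had 21 UMIs in sham control and 7 on day 7 (0.488, 0.175 to 1.19), an interval that includes 1. Sema6d in microglia was 98.4 CPM in sham control and 44.7 CPM on day 3 (0.454, 0.218 to 0.946), where free RNA would give 50.1 CPM. Of the genes highest in neurons, several had small counts or levels near those of free RNA. Slit2 in oligodendrocytes was 28.1, 10.7, 48.7 and 32.5 CPM, from 6 UMIs on day 1, and free RNA would give 14.7, 4.86, 17.9 and 10.7 CPM. Slit3 was likewise lowest on day 1 in these nuclei, at 56.1, 26.8, 79.8 and 79.2 CPM, of which free RNA would give 38.1, 20.1, 60.9 and 35.8 CPM, and its day 1 ratio of 0.477 was 0.928 with doublets kept. Ntng2 in oligodendrocytes had 17 UMIs in sham control and 3 on day 1, a ratio of 0.247 (0.0464 to 0.854) that was 0.882 with doublets kept. Epha6 in microglia was 336, 288 and 310 CPM in sham control and on days 1 and 3, and 94.4 CPM on day 7, where free RNA would give 92.7 CPM, and the day 7 ratio of 0.281 turned to 1.28 in marker classes. Unc5d in microglia had 347, 203, 110 and 545 CPM, but 1 nucleus gave 71.7% of its UMIs in sham control and 1 gave 74% on day 7. Unc5d in astrocytes was at 283 CPM on day 1 against 126 CPM in sham control, with 49% of the day 1 UMIs from 1 nucleus, and its ratio of 2.24 was 1.09 in marker classes. On days 3 and 7 it was lower than in sham control, at 71.1 and 51.0 CPM (0.562, 0.393 to 0.799, and 0.403, 0.239 to 0.653), where free RNA would give 81.9 and 54.4 CPM. In precursor cells Robo2 was 67.9, 68.9, 168 and 149 CPM, from 14 to 48 UMIs, with free RNA at 37.7 to 70.2 CPM, and its ratios of 2.47 and 2.19 on days 3 and 7 turned to 0.727 and 0.806 in marker classes. Plxna2, a plexin, was 49.8, 78.8, 97.8 and 118 CPM there, from 11 to 28 UMIs, above the free RNA level in every library, and its day 7 ratio was 2.37 (1.11 to 5.38), but 1.06 in marker classes. In oligodendrocytes Plxna2 was 19.1, 23.2, 47.7 and 25.5 CPM, a ratio of 2.49 (1.38 to 4.79) on day 3, where free RNA would give 30.7 CPM.

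Other ratios were set apart by their size within a class and day. Robo3 in striatal projection neurons was 13.1, 6.44, 26.0 and 10.6 CPM, below sham control on day 1 (0.489, 0.242 to 0.925) and above it on day 3 (1.98, 1.36 to 2.91). In thinned nuclei, where 6 and 1 UMIs remained, the day 1 log2 ratio turned to 0.47. Sema3a in GABAergic neurons was 50.3, 34.3, 65.2 and 97.1 CPM, and its day 7 ratio of 1.93 (1.38 to 2.73) turned to 0.968 in thinned nuclei. Ntng1 in astrocytes was 94.8, 75.2, 27.4 and 48.6 CPM, a ratio of 0.289 (0.169 to 0.479) on day 3 that was 0.682 in marker classes. Over the alternatives its day 3 log2 ratio ran from -4.04 to -0.55. Epha6 in precursor cells was 90.5, 59.1, 196 and 97.3 CPM, but 64.3% of the day 3 UMIs came from 1 nucleus and the ratio of 2.16 turned to 0.604 in marker classes. Unc5d in the same cells had 21 UMIs in sham control and 7 on day 1 (0.363, 0.13 to 0.885; 1.03 in marker classes). Epha7, an Eph receptor, was 104, 94.2, 71.0 and 34.3 CPM in microglia, a ratio of 0.329 (0.124 to 0.796) on day 7, where free RNA would give 44.6 CPM. As a log2 ratio that value was -1.60, and in marker classes it was -0.73, short of 2-fold. Also past 2-fold were Ntn5 and Unc5b in glutamatergic neurons, Plxnb2 in striatal projection neurons, Ephb2, Slit2 and Slit3 in astrocytes, Efna5, Epha4, Epha6 and Epha7 in oligodendrocytes, Epha4 in precursor cells, and Epha3, Epha4, Plxnc1 and Robo1 in microglia.

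The other genes of the pathways, 26 co-receptors and modulators and 40 intracellular effectors, were followed by the same rule. In neurons 0 of 62 passed 2-fold in glutamatergic neurons, 1 of 58 in striatal projection neurons and 2 of 56 in GABAergic neurons. In glia 10 of 47 passed in astrocytes (6 higher, 6 lower, with genes that passed both ways on different days), 9 of 47 in oligodendrocytes (7 higher, 2 lower), 3 of 33 in precursor cells and 12 of 37 in microglia (7 higher, 5 lower). The shares were 0%, 1.72%, 3.57%, 21.3%, 19.1%, 9.09% and 32.4% in that order of classes, below the shares of all genes given above in neurons and precursor cells and above them in astrocytes, oligodendrocytes and microglia. Farp1, a plexin-linked exchange factor, was 36.5 CPM in striatal projection neurons of the sham library and 14.1 CPM on day 7 (0.388, 0.248 to 0.589; 0.681 in thinned nuclei, from 8 and 3 UMIs). Ptprd, a receptor phosphatase at synapses, was 2956 CPM in GABAergic neurons of the sham library and 1477 CPM on day 7, a ratio of 0.5 that was 0.89 in marker classes. Flrt1, a ligand of Unc5 receptors, was higher on day 1 in GABAergic neurons (2.05, 1.35 to 3.15) and striatal projection neurons (1.76, 1.32 to 2.34). Dscaml1, an adhesion molecule, was above sham control in glutamatergic neurons on every day at 1.34, 1.44 and 1.9, and Vav3, an exchange factor downstream of Eph receptors, at 1.4 and 1.8 on days 1 and 7. Weighted alike, Dscaml1 was at 1.17, 1.32 and 1.58, and Vav3 at 1.05 and 1.26. In glia, Tiam1, an exchange factor for Rac, was higher in oligodendrocytes on day 3 (4.27, 1.63 to 14.2) and lower in microglia on the same day (0.272, 0.121 to 0.585), from 5 to 28 and 12 to 20 UMIs. In marker classes these ratios were 2.43 and 0.512. Dscam, an adhesion molecule that binds netrin, was lower in astrocytes on day 3 (0.298, 0.195 to 0.447; 0.542 in marker classes), and its log2 ratio there ran from -4.41 to -0.88 over the alternatives. Ptpro, a receptor phosphatase, was higher in oligodendrocytes on day 7 (4.44, 2.1 to 10.5, from 9 and 36 UMIs; 1.78 in marker classes). Dscaml1 in microglia had 5 UMIs in sham control and 49 on day 7, a ratio of 7.26 that was 1.78 in marker classes. For Lrig2 in astrocytes on day 1, Lrig1 in precursor cells on day 3 and Vav3 in precursor cells on day 1, whose ratios were 3.72, 6.95 and 2.96, 1 nucleus gave 72.1%, 52.8% and 46.9% of the UMIs.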

How the data were processed

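RNA of nuclei from pooled forebrain hemispheres was sequenced with 10x Genomics 3′ chemistry, and groups were taken from the labels. The deposited values are raw UMI counts per gene and barcode, with no filter on barcodes and no normalisation. Per the submitters' processing notes the authors used STAR 2.7.3a and GRCm38/mm10, and the methods state that exonic and intronic reads were counted. From these counts nuclei were called per library with an emptyDrops-type test (ambient profile from barcodes of at most 1000 UMIs, false discovery rate 0.001), and doublets were scored with Scrublet (scanpy 1.11.5) and removed. Clustering used Seurat (version 5.3.0, under R 4.3.3) after SCTransform (sctransform 0.4.2), with 3000 variable features of which 2929 were used once the guidance and pathway genes were left out, 30 principal components and a resolution of 0.8, and gave 32 clusters. Clusters were named from marker lists by a rule set after the clusters were seen.

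UMIs were summed per class and library (172703 to 8229059 in the main classes). Since a group is 1 library, the tables hold no p-values, and a nucleus never counts as a replicate. Sums of at most 3 UMIs in both libraries gave no ratio. The share of free RNA in a class was estimated from markers of other classes against the profile of barcodes with at most 100 UMIs. The guidance genes and pathway lists were chosen with earlier results of these data known. Named genes are the 2 with most UMIs of each family, the 3 with the largest fold in each class, and up to 2 per class, day and direction with the largest ratio whose interval leaves out 1 and that came from at least 10 nuclei. Others are named as counted by the 2-fold rules or as chosen after their values were seen. Positions are from GENCODE on GRCm38 (46488 of 46983 identifiers matched). The alternatives were thinning, a cut at 2000 UMIs, keeping doublets, classes by marker UMIs, subtraction of free RNA, other minimum UMIs, TMM factors (edgeR 4.0.16), 1.5-fold, per-nucleus means, leaving out the top nucleus of each gene, leaving out 1 library and, added after seeing the data, weighting the clusters of a class alike. The steps were checked on simulated counts. Python 3.11.15, numpy 2.4.6, scipy 1.17.1 and pandas 2.3.3 were used.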

Additional observations from a re-analysis of the deposited data

Results flagged for a closer look

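Epha6 and Unc5d lay on one side of sham control on all 3 days in some classes and on the other side in others, with every counting interval leaving out 1. Epha6 was at 1.17, 1.13 and 1.26 times its sham level in glutamatergic neurons on days 1, 3, and 7, against 0.881, 0.919 and 0.937 in striatal projection neurons and 0.745, 0.317 and 0.315 in astrocytes. With each cluster held at the same weight in every library, the glutamatergic ratios of Epha6 were 0.866, 0.976 and 0.87, below sham control as in the other classes, so the contrast between classes lost its direction. The astrocyte levels of Epha6 on days 3 and 7 were 86.1 and 85.7 CPM, where free RNA would give 110 and 76.1 CPM. The day 3 log2 ratio there was -1.66, and -0.59 as a mean over nuclei. Unc5d was at 1.15, 1.43 and 1.38 in GABAergic neurons against 0.82, 0.827 and 0.557 in glutamatergic neurons, and its day 1 ratio in GABAergic neurons was 0.964 in nuclei thinned to 1000 UMIs. None of these differences between classes was tested, since each group held 1 library, and all 3 ratios of a class share the sham library.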

How the results depend on the processing

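No paired analysis was possible because each group has 1 library. Of 1297 values of the 145 named log2 ratios under the alternatives, 1099 kept their direction and stayed inside the counting interval, 172 kept it outside the interval and 26 reversed. The leading genes numbered 11, against 7 in nuclei thinned to 1000 UMIs and 22 at 1.5-fold, and 12 to 14 when 1 library was left out, which leaves fewer libraries to pass. The counts past 2-fold after injury moved as follows. For other minimum UMIs, for 1.5-fold and for pathway pairs the share of all genes is not given here, so those counts are not read against it. Thinned, they were 2 in GABAergic neurons (10.5%, against 15.3% of all genes). With the shares given above they were 2 in astrocytes, 5 in microglia, 5 in oligodendrocytes and 2 in precursor cells. With free RNA subtracted they were 8 in GABAergic neurons (17.4%, against 18.6% of all genes) and 14 in astrocytes (46.7%, against 36.3%). They were 10 in glutamatergic neurons (16.7%, against 15.3%) and 8 in striatal projection neurons (16.7%, against 20.9%), and 67 in place of 37 for pairs of a pathway gene and a class. At a minimum of 100 UMIs they were 2 in GABAergic neurons, 3 in glutamatergic neurons, 4 in microglia, 2 in precursor cells and 18 for pathway pairs. With no minimum they were 11 in GABAergic neurons, 22 in astrocytes, 21 in microglia, 32 in oligodendrocytes, 19 in precursor cells, 11 in striatal projection neurons and 68 for pathway pairs. At 1.5-fold they were 19 in GABAergic neurons, 16 in astrocytes, 23 in glutamatergic neurons, 16 in microglia, 26 in oligodendrocytes, 9 in precursor cells, 12 in striatal projection neurons and 101 for pathway pairs. With classes by marker UMIs they were 19 in oligodendrocytes (54.3%, against 16.1% of all genes), 9 in precursor cells (26.5%, against 15.5%) and 1 in striatal projection neurons (2.13%, against 7.44%). As per-nucleus means they were 5 in microglia and 3 in precursor cells. Without the top nucleus of each gene GABAergic neurons had 8 (17.4%, against 11.5% of all genes). With doublets kept precursor cells had 10 (41.7%, against 17.9%), and with clusters weighted alike glutamatergic neurons had 3 (5%, against 7.76%). The log2 ratios that reversed in thinned nuclei were Dcc in astrocytes on day 3 (0.45), Ephb1 in GABAergic neurons on days 3 and 7 (0.25 and 0.02), Nrp1 in astrocytes on day 7 (-0.36), Ntn4 in glutamatergic neurons on day 1 (0.50), Robo3 in striatal projection neurons on day 1 (0.47), Sema3a in GABAergic neurons on day 7 (-0.05), Sema6c in glutamatergic neurons on day 3 (1.04) and Unc5d in GABAergic neurons on day 1 (-0.05). With clusters weighted alike, in glutamatergic neurons, they were Epha6 (-0.21, -0.04 and -0.20), Ntng1 on day 7 (-0.04) and Robo1 on days 1 and 3 (-0.06 and -0.01). With classes by marker UMIs they were Epha6 in microglia on day 7 (0.36) and precursor cells on day 3 (-0.73), Plxna4 in astrocytes on day 1 (-0.04), Robo2 in precursor cells on day 3 (-0.46), Slit2 in glutamatergic neurons on day 3 (0.10), and Unc5d in microglia on day 3 (0.25), precursor cells on day 1 (0.04) and oligodendrocytes on day 7 (0.59). As per-nucleus means they were Dcc in astrocytes on day 3 (0.31) and Efna5 in GABAergic neurons on day 7 (0.04). Without the top nucleus, Unc5d in microglia on day 1 was 0.01. The cause was not tested. A gene counted in a class can rest on 50 UMIs over 4 libraries, where a ratio has a wide counting interval.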

Other observations

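The neurons outside the main classes (1580 nuclei) formed 6 clusters, of which 4 lay nearest the GABAergic and 2 the glutamatergic markers, so they are a mixture. The 3 guidance genes higher in them than in every main class within each library were Epha5, Epha6 and Unc5d. Epha6 measured 1663, 1554, 1861 and 1624 CPM in sham control and on days 1, 3, and 7, 1.5-fold the pooled level in striatal projection neurons. Epha5, a receptor of the anchored ephrins, measured 939, 847, 1063 and 949 CPM, 1.41-fold that in glutamatergic neurons. Unc5d stood at 1001, 1058, 1051 and 1048 CPM, 1.35-fold that in glutamatergic neurons.

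The 5 further classes held 19 to 139 nuclei and are given mostly by pooled UMIs. Endothelial nuclei (139 in all, 6 of them on day 1) had Robo4, the Robo receptor of vessels, at 110 CPM (Poisson 95% interval 87.6 to 137) from 81 UMIs, while no main class exceeded 0.904 CPM. Sema3g, a secreted semaphorin, was at 61.3 CPM (44.7 to 82) there from 45 UMIs, against at most 0.325 CPM in a main class. In the same nuclei Sema3c was at 641 CPM (585 to 702), 12.4-fold its highest main class, and Sema7a, a membrane-anchored semaphorin, at 302 CPM (264 to 345), 11.6-fold. Plxnd1, the endothelial plexin, was at 77.6 CPM (58.8 to 101), 4.54-fold. By library Sema3c measured 889, 1291, 495 and 694 CPM in sham control and on days 1, 3, and 7, from 42 to 213 UMIs. Leptomeningeal fibroblasts had Sema3d at 360, 115, 390 and 760 CPM by library, from 5 to 70 UMIs, and, when pooled, Slit2 at 670 CPM (588 to 760) and Plxna2 at 464 CPM (397 to 540), 2.5-fold and 2-fold their highest main class. Ependymal nuclei had Slit2 at 411 CPM (354 to 475) and Plxnb2 at 118 CPM (88.2 to 154). Neuroblast-like nuclei, 34 in all, had Robo2, a Slit receptor, at 2723 CPM (2459 to 3009), 2.65-fold its highest main class. These genes were named after their values were seen, and no difference from the main classes was tested.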
